A study of Arabidopsis thaliana with 12 samples.

Results

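Expansins and XTHs are wall proteins that let plant cells expand, and 50 of their genes were followed here through seedlings of Arabidopsis thaliana at 2 temperatures and in 2 genotypes. They were taken by locus from a list: 17 α-expansins (EXPA), 3 β-expansins (EXPB), 4 expansin-like genes (EXLA and EXLB) and 26 xyloglucan endotransglucosylase/hydrolases (XTH). These are 50 of the 32399 genes of the deposited table, and the root hair genes EXPA7, EXPA18 and XTH14 were left out of the list. Whole seedlings were 5 days old. WT and plants labelled as the T-DNA mutant rve5-2 had grown in long days of 16 h light and 8 h dark at 22 °C, then spent 12 h at either 22 or 29 °C and were harvested 12 h after lights on. Each of the 4 combinations of genotype and temperature has 3 libraries. The study's title names hypocotyl growth in warmth and the clock factors REVEILLE5 (RVE5) and CCA1.

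In the primary wall, xyloglucan chains coat and tie cellulose microfibrils. α-Expansins are small secreted proteins that loosen the contacts between them without cutting a chain, and they act best at the acid pH that plasma membrane proton pumps set up in the wall. β-Expansins are related proteins, some of which act on grass walls, and for the expansin-like proteins no loosening activity has been established. XTHs cut a xyloglucan chain and join the cut end to another chain, or, in a small group that includes XTH31 and XTH32, can pass it to water. Members of both families are markers of elongating tissue, and several are known from the root, among them XTH12, XTH13, XTH17, XTH18, XTH19, XTH20, XTH26, XTH31 and EXPA17.

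The 12 libraries held 65.9 to 89.1 M counts each (M, 1e6). RVE5 itself, counted as a check of the label, stood at 14.6, 15.8 and 14.4 CPM (counts per M counts) in WT at 22 °C and at 1075, 939 and 1018 CPM in the rve5-2-labelled libraries. At 29 °C it stood at 16.7, 13.4 and 15.1 CPM in WT and at 1417, 1325 and 1246 CPM in those libraries. It was thus higher, not lower, in all 6 rve5-2-labelled libraries, so that genotype here means few or many RVE5 counts. The labels leave it unsaid if replicates came from separate plates or plants, and the p-values reflect library-to-library spread, which may be technical.

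Most root markers fell with warmth. Of 14 root genes, 10 were called lower at 29 °C in WT and 11 in the rve5-2-labelled libraries, beside 7.41% and 13.0% of all genes tested, and none higher. EXPA18, IRT1 and SHR passed in neither genotype and NRT2.1 not in WT. SHR, a root regulator of radial pattern, held 17.1, 22.8 and 18.6 CPM at 22 °C and 16.1, 17.7 and 20.5 CPM at 29 °C in WT (log2 fold change -0.11 with an SE of 0.12), and its log2 fold change was -0.03 in the rve5-2-labelled libraries. The mean log2 CPM of the 14 genes, called the root score below, averaged 2.99 ± 0.52 in cool and 0.36 ± 1.46 in warm WT (± SD of 3 libraries), and 3.34 ± 0.20 and 0.39 ± 0.63 in the rve5-2-labelled libraries at 22 and 29 °C. The summed level of the 14 genes ranged from 111 to 210.3 CPM and from 21.8 to 75.3 CPM in WT, and from 188 to 294 CPM and from 38.3 to 76.0 CPM in the rve5-2-labelled libraries. WT at 29 °C, replicate 1, had the lowest score of all, at -1.33, and was the lowest library of its group in 14 of the 14 markers; EXPA18 and RHS18 were at 0 in a library of that group. The mean log2 CPM of 8 leaf and light-harvesting genes, the shoot score, was higher at 29 °C with no overlap in either genotype, at 10.5 ± 0.063 in cool and 10.9 ± 0.15 in warm WT, and 10.8 ± 0.068 in cool and 11.3 ± 0.062 in warm rve5-2-labelled libraries. Of these 8 genes, 1 was called higher in warm WT and 3 in the warm rve5-2-labelled libraries, beside 8.08% and 13.0% of all genes. Their median log2 fold change was 0.32 and 0.38, and the largest, that of the light-harvesting gene LHCB2.1, was 1.93 and 1.98. The part of the shoot score in the results was not tested. In RNA from whole seedlings, fewer root cells and less of a transcript per root cell cannot be told apart.

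The catalytic motif of XTH enzymes was found both among XTHs that rose and among XTHs that fell in warmth, though not in XTH9, which rose, and the DNA that encodes it is printed for 6 of the 20 members that passed a test. A search for this conserved active-site motif found 1 stretch of 30 coding bases in 24 of the 26 genes, and none in XTH9 and XTH33. The search allowed few variants of the motif, so these genes may hold a variant it missed and are not shown to lack the site. Sequences were read from the RefSeq genome TAIR10.1 with its coordinates, 5′ to 3′ on the coding strand. Capitals mark the 27 bases of the motif, and the lower-case bases are the codon before it.
XTH6 (chr5:26299613-26299642, plus strand): agaGACGAGCTAGATTTTGAGTTCTTGGGA
XTH16 (chr3:8550595-8550624, plus strand): cacGACGAGATAGACTTTGAGTTTCTTGGT
XTH12 (chr5:23301145-23301174, minus strand): tggGATGAGATTGATTTCGAGTTCTTGGGT
XTH13 (chr5:23303645-23303674, minus strand): tggGATGAAATCGACTTCGAGTTCTTGGGT
XTH20 (chr5:19482562-19482591, plus strand): tggGATGAAATAGATTTTGAGTTCTTGGGA
XTH31 (chr3:16447882-16447911, minus strand): cacGATGAGGTCGATATCGAGTTTCTAGGG
XTH6 and XTH16, which rose at 29 °C, had 21 of the 27 bases in common. XTH12, which fell, had 24 in common with XTH13 and 23 with XTH20, which fell too, and 22 with XTH6 and 20 with XTH16. XTH31, which fell, had 20 in common with XTH12 and 18 with XTH6. Identity did not follow direction throughout: XTH16 had most in common with XTH15, at 26 bases, and XTH15 fell in WT. XTH12 had most in common with XTH24, also at 26 bases, and XTH24 was not called.

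Warmth moved the families in both directions. Calls are those of edgeR below an adjusted p of 0.05 over 21870 genes tested; 49 of the 50 members were tested. In WT 13 of 49 members were called, or 26.5%, while 15.5% of all genes tested were called. Of these, 5 were higher at 29 °C (EXPA6, EXLA1, XTH6, XTH9 and XTH16), beside 8.08% of all genes, and 8 were lower (EXPA9, EXPA15, XTH12, XTH13, XTH15, XTH20, XTH26 and XTH31), beside 7.41%. In the rve5-2-labelled libraries, 17 of 49 were called, or 34.7%, while 26.0% of all genes were. Of these, 8 were higher (EXPA6, EXPB1, EXLA1, EXLA2, XTH6, XTH9, XTH16 and XTH27) and 9 lower (EXPA10, EXPA15, EXPA17, XTH12, XTH13, XTH18, XTH20, XTH30 and XTH31), beside 13.0% of all genes in each direction.

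The warm responses of the genotypes rest on different libraries and can be set side by side. The 5 members higher in WT were also higher in the rve5-2-labelled libraries, where they make 62.5% of the members called higher. Of the members called lower, 5 were shared, which is 62.5% of those in WT and 55.6% of those in the rve5-2-labelled libraries. No member was called in opposite directions, and 41 of the 49 had the same sign. Shared calls and signs were not counted over all genes tested, so this likeness is not shown to be particular to these families. The median log2 fold change of the members was -0.12 in WT and -0.22 in the rve5-2-labelled libraries, against 0.00 in both over all genes tested. The libraries of both temperatures did not overlap in CPM for 21 members in WT and for 27 in the rve5-2-labelled libraries, beside 36.3% and 45.6% of all genes tested.

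**Figure D1:**
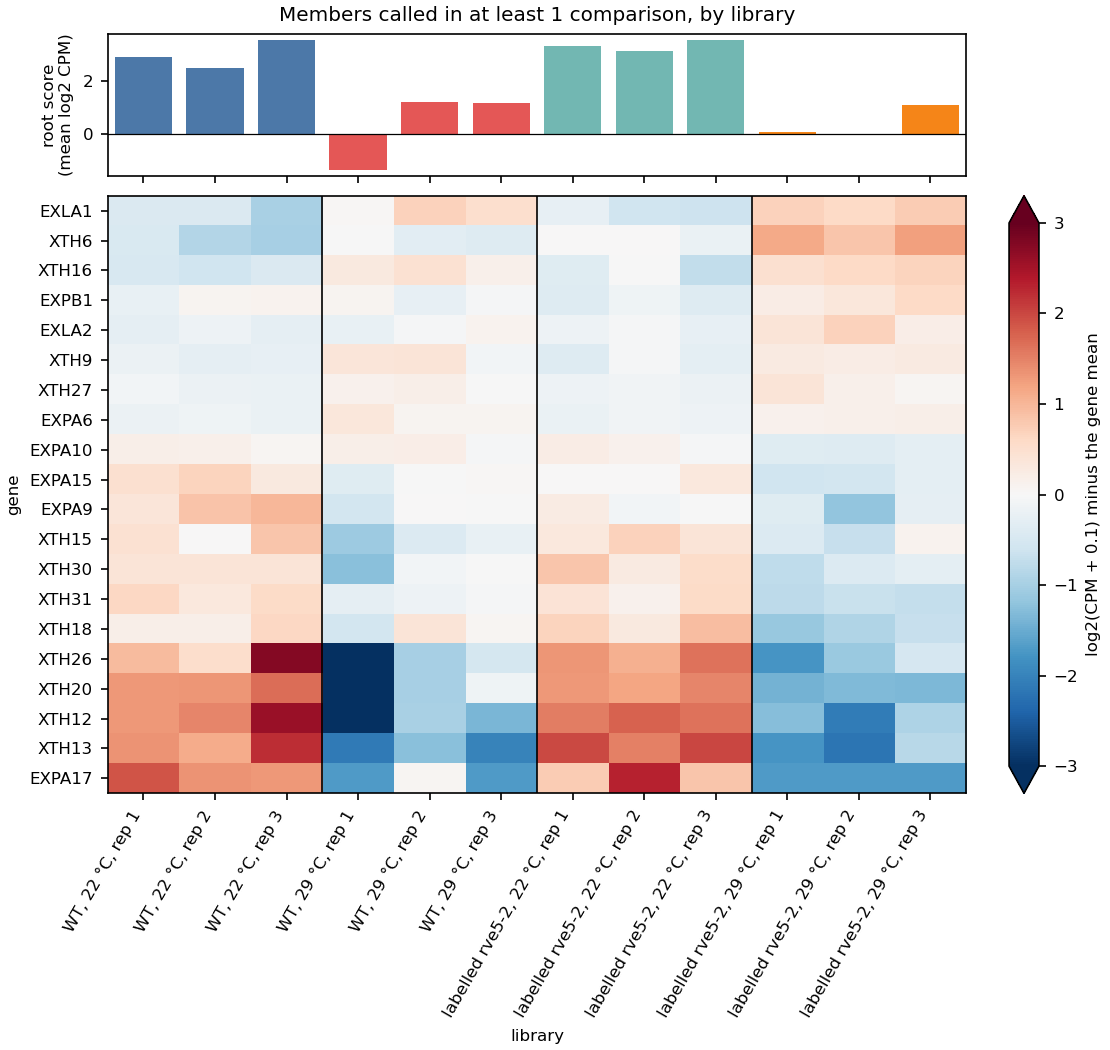
Lower panel: log2(CPM + 0.1) minus the gene's mean over 12 libraries, for the 20 members called in at least 1 comparison (rows) by library (columns). Upper panel: the root score of each library in mean log2 CPM; the members from XTH26 down to EXPA17 are low in the same libraries as the score, and WT at 29 °C, replicate 1, is lowest at -1.33.

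Measured per length, the 10 highest of the 50 members held 69.7% of the families' summed FPKM, and the highest 4 held 42.3%. FPKM (fragments per kilobase of transcript per M) averaged over 12 libraries exceeded 100 in 4 members and 50 in 10, and stayed below 1 in 8. The highest were XTH31 at 192, XTH7 at 189, XTH4 at 174 and XTH9 at 119.9 FPKM. XTH31 ranked 1st in both groups at 22 °C, 2nd in WT at 29 °C and 4th in the rve5-2-labelled libraries at 29 °C, where XTH7 led with 225 FPKM. The most abundant expansins were EXPA1 at 94.1 FPKM, an α-expansin known for its part in stomatal movement, EXPB3 at 84.4 and EXPA6 at 74.1.

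Summed over the 50 members, FPKM was 1669, 1618 and 1642 in WT at 22 °C and 1508, 1573 and 1544 at 29 °C. These libraries did not overlap, and the exact two-sided permutation p was 0.1, the smallest that 3 libraries against 3 allow. The rve5-2-labelled libraries gave 1639, 1753 and 1664 at 22 °C and 1411, 1419.6 and 1717 at 29 °C, which overlapped (exact permutation p = 0.3). Among the XTHs, XTH31 made up 27.3% ± 0.99 and 17.9% ± 2.29 of summed XTH FPKM in WT at 22 and 29 °C, and 23.2% ± 4.73 and then 11.0% ± 0.90 in the rve5-2-labelled libraries (± SD of 3 libraries). The sum of the other XTHs averaged 706 and 754 FPKM in WT and 788 and 832 in the rve5-2-labelled libraries, with overlapping libraries in both genotypes (exact permutation p = 0.3 and p = 0.5).

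**Figure D2:**
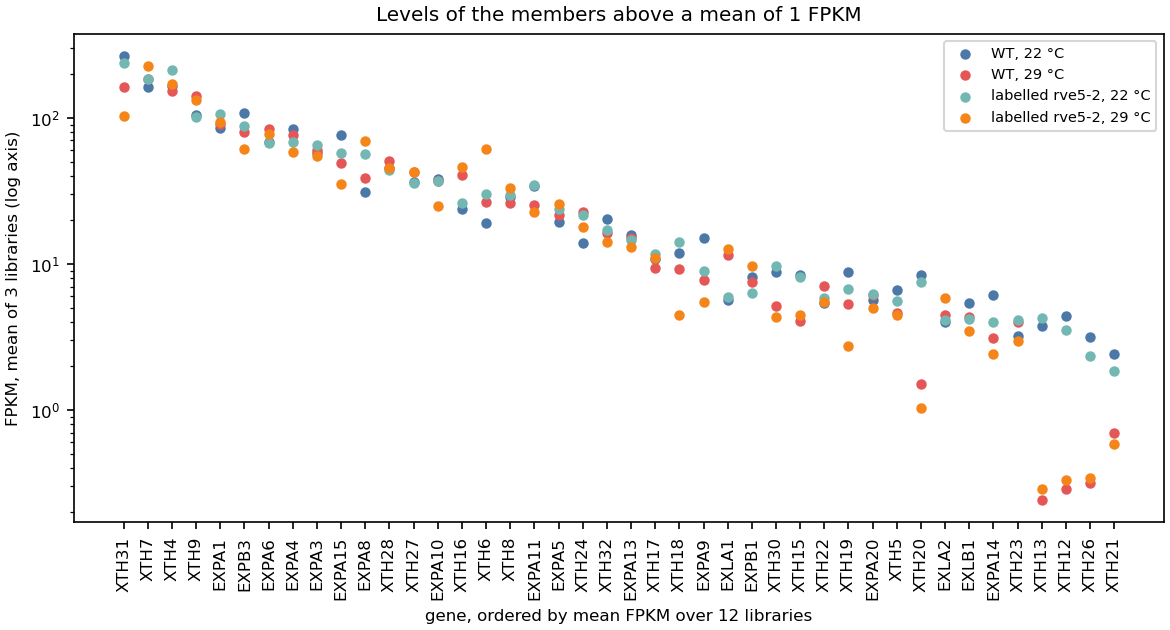
FPKM (log axis, mean of 3 libraries) of the 42 members with a mean above 1 FPKM, ordered by that mean; each point is a group. XTH31 leads at 192 FPKM over all libraries and its points at 29 °C both lie under its points at 22 °C; XTH12, XTH13, XTH20 and XTH26 show the widest gaps between the temperatures.

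Among the 17 α-expansins, 1 rose and 2 fell in WT, and 1 rose and 3 fell in the rve5-2-labelled libraries. These are 17.6% and 23.5% of them, near the 15.5% and 26.0% of all genes tested. EXPA6 (AT2G28950, chromosome 2, 12431341 to 12433595, minus strand) stood at 92.7, 96.2 and 90.4 CPM in WT at 22 °C and at 132, 111 and 111 CPM at 29 °C. The rve5-2-labelled libraries held 91.5, 96.4 and 94.2 CPM at 22 °C and 114, 116 and 118 CPM at 29 °C. All 6 warm libraries lay above all 6 cool ones (log2 fold change 0.34 with an SE of 0.072, adjusted p = 0.00859 in WT; log2 fold change 0.30 with an SE of 0.072, adjusted p = 0.00992 in the rve5-2-labelled libraries).

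EXPA15 (AT2G03090, chromosome 2, 916854 to 918643, minus strand) went the other way. It stood at 101, 114 and 88.8 CPM in WT at 22 °C and at 55.7, 71.1 and 74.2 CPM at 29 °C, and at 72.6, 72.1 and 90.5 CPM at 22 °C and 47.4, 49.2 and 59.1 CPM at 29 °C in the rve5-2-labelled libraries. The temperatures did not overlap within either genotype (log2 fold change -0.60 with an SE of 0.14, adjusted p = 0.0129 in WT; log2 fold change -0.60 with an SE of 0.14, adjusted p = 0.0081 in the rve5-2-labelled libraries), and without WT at 22 °C, replicate 2, the adjusted p in WT was 0.0512. EXPA9 (AT5G02260) held 14, 19.7 and 21.6 CPM at 22 °C and 7.4, 10.9 and 10.8 CPM at 29 °C in WT (log2 fold change -0.92 with an SE of 0.24, adjusted p = 0.0222). In the rve5-2-labelled libraries it held 12.8, 10.2 and 10.7 CPM at 22 °C and 8.48, 4.73 and 9 CPM at 29 °C, also without overlap but not past the test (log2 fold change -0.60 with an SE of 0.24, adjusted p = 0.0827). Its call in WT was lost without WT at 22 °C, replicate 2 or 3, or WT at 29 °C, replicate 1, at an adjusted p of up to 0.09.

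EXPA10 (AT1G26770, chromosome 1, 9259605 to 9261313, plus strand), an α-expansin that promotes the growth of leaves and petioles, held 54.9, 53.4 and 50.1 CPM in WT at 22 °C and 54.8, 55.5 and 47.4 CPM at 29 °C, and these overlapped. The rve5-2-labelled libraries held 56.9, 53 and 47 CPM at 22 °C and 37.7, 37 and 39.2 CPM at 29 °C, the lowest 3 of the 12 (log2 fold change -0.46 with an SE of 0.085, adjusted p = 0.00239). EXPA17 (AT4G01630), known from lateral root formation, was scarce. It held 1.11, 0.727 and 0.699 CPM in WT at 22 °C and 0, 0.237 and 0 CPM at 29 °C (log2 fold change -3.41 with an SE of 1.35, adjusted p = 0.113). In the rve5-2-labelled libraries it held 0.448, 1.52 and 0.482 CPM at 22 °C and no counts in any library at 29 °C, which is at least 15.2-fold lower against a floor of 3 fragments over the group (adjusted p = 0.0123). EXPA12 had no counts in any of the 6 libraries at 29 °C and at most 0.877 CPM at 22 °C.

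The few β-expansins and expansin-like genes that were called all rose. Of 2 β-expansins tested, 0 were called in WT and 1 in the rve5-2-labelled libraries. Of 4 expansin-like genes, 1 and 2 were called, beside 15.5% and 26.0% of all genes tested. EXLA1 (AT3G45970, chromosome 3, 16896166 to 16897308, plus strand) held 6.12, 6.12 and 4.23 CPM in WT at 22 °C and 8.62, 13.6 and 12 CPM at 29 °C. The rve5-2-labelled libraries held 6.98, 5.54 and 5.39 CPM at 22 °C and 13.7, 12.8 and 14.4 CPM at 29 °C. The fitted ratio was 2.08 and 2.28, and all warm libraries lay above all cool ones (log2 fold change 1.05 with an SE of 0.19, adjusted p = 0.00417 in WT; log2 fold change 1.19 with an SE of 0.19, adjusted p = 0.00115 in the rve5-2-labelled libraries). The tandem neighbour EXLA3 (AT3G45960, chromosome 3, 16892756 to 16893900, plus strand) shared 86.6% of its aligned coding bases with EXLA1, and 1.26% of its exonic 50-base stretches recur in EXLA1, so a small part of the reads could be split between them. EXLA3 stayed at 1.45 CPM or less in every library and was not called. EXLA1 also overlaps the end of AT3G45980 on the other strand, and the libraries do not mark the strand.

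EXLA2 (AT4G38400) held 4.22, 4.63 and 4.19 CPM at 22 °C and 4.4, 5.01 and 5.48 CPM at 29 °C in WT, which overlapped. In the rve5-2-labelled libraries it held 4.58, 5 and 4.3 CPM at 22 °C and 6.75, 8.29 and 5.85 CPM at 29 °C (log2 fold change 0.59 with an SE of 0.16, adjusted p = 0.0206). Its call was lost without cool replicate 1 or 3 or warm replicate 2, at an adjusted p of up to 0.0982. The β-expansin EXPB1 (AT2G20750) held 7.8, 9.61 and 9.83 CPM at 22 °C and 9.62, 7.59 and 8.91 CPM at 29 °C in WT, again overlapping. It held 6.93, 8.24 and 6.88 CPM at 22 °C and 10.5, 11.6 and 13.8 CPM at 29 °C in the rve5-2-labelled libraries, all 3 warm ones above all cool ones (log2 fold change 0.71 with an SE of 0.15, adjusted p = 0.00492). EXPB3, the most abundant β-expansin, was not called (log2 fold change -0.40 and -0.41, adjusted p = 0.107 and 0.074). EXPB2 had 4 counts in 1 library and none in the others, and was not tested.

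Among the 26 XTHs, 3 rose and 6 fell in WT, or 34.6% called beside 15.5% of all genes. In the rve5-2-labelled libraries 4 rose and 6 fell, or 38.5% beside 26.0%. XTH6 (AT5G65730, chromosome 5, 26299032 to 26300478, plus strand) had the smallest adjusted p of any member between the genotypes at 29 °C. WT held 25.7, 19.1 and 17.6 CPM at 22 °C and 34.8, 28.3 and 26.7 CPM at 29 °C. The rve5-2-labelled libraries held 35.7, 35.6 and 30.8 CPM at 22 °C and 77.5, 62.3 and 82.6 CPM at 29 °C. The WT libraries did not overlap between temperatures, and the warm rve5-2-labelled libraries lay above all 9 others (log2 fold change 0.52 with an SE of 0.15, adjusted p = 0.0355 in WT; log2 fold change 1.12 with an SE of 0.15, adjusted p = 0.000428 in the rve5-2-labelled libraries). The WT call was lost without cool replicate 2 or 3 or warm replicate 1 or 2, at an adjusted p of up to 0.135.

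XTH16 (AT3G23730, chromosome 3, 8550110 to 8551335, plus strand) held 25.8, 23.6 and 26.6 CPM in WT at 22 °C and 44, 49 and 40.2 CPM at 29 °C. It held 28, 35.4 and 21.6 CPM at 22 °C and 49.8, 54.1 and 57.3 CPM at 29 °C in the rve5-2-labelled libraries. Every warm library lay above every cool one (log2 fold change 0.81 with an SE of 0.14, adjusted p = 0.00382 in WT; log2 fold change 0.93 with an SE of 0.14, adjusted p = 0.000967 in the rve5-2-labelled libraries). XTH15 (AT4G14130), a shade-induced XTH with 81.7% of its aligned coding bases identical to XTH16, moved the opposite way. It held 8.68, 6.41 and 11.4 CPM at 22 °C and 2.91, 4.73 and 5.36 CPM at 29 °C in WT (log2 fold change -1.03 with an SE of 0.28, adjusted p = 0.0267), and 7.93, 10.3 and 8.27 CPM at 22 °C and 4.73, 3.86 and 6.83 CPM at 29 °C in the rve5-2-labelled libraries, not past the test (log2 fold change -0.78 with an SE of 0.28, adjusted p = 0.0545). The WT call of XTH15 was lost without cool replicate 1 or 3 or warm replicate 1 or 2, at an adjusted p of up to 0.114.

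XTH9 (AT4G03210, chromosome 4, 1415949 to 1417352, plus strand), an XTH of shoot apices and growing stems, held 118, 111 and 112 CPM in WT at 22 °C and 171, 175 and 126 CPM at 29 °C. The rve5-2-labelled libraries held 102, 129.5 and 109 CPM at 22 °C and 160.3, 155 and 160.0 CPM at 29 °C. The temperatures did not overlap within a genotype, and the fold changes were nearly equal (log2 fold change 0.47 with an SE of 0.12, adjusted p = 0.0193 in WT; log2 fold change 0.48 with an SE of 0.12, adjusted p = 0.0109 in the rve5-2-labelled libraries). The WT call was lost without cool replicate 2 or 3 or warm replicate 1 or 2, at an adjusted p of up to 0.0661.

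Of the members called in the same direction in both genotypes, XTH9 alone had the evening element in its 300 upstream bases, so that stretch is printed. The evening element, AAAATATCT, is the letters that Myb-like clock factors of the CCA1 and RVE family bind. The stretch ends at the gene start of the reference annotation, is given 5′ to 3′ on the plus strand, and has the element on the opposite strand in capitals, from base 287 before the start.
XTH9 (chr4:1415317-1415616, plus strand, TAIR10.1): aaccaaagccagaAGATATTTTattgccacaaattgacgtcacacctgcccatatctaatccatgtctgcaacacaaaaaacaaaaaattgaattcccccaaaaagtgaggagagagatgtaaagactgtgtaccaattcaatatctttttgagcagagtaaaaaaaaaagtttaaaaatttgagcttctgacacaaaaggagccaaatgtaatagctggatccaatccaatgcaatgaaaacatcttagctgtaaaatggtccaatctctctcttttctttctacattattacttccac
Of all genes, 2.65% had the evening element in such a stretch on either strand, and 1 of the 50 members (2.0%) had it. The shorter CCA1-binding letters AAAAATCT were found before EXPA5, XTH13 and XTH22 and before 7.57% of all genes. The G-box CACGTG, which PIF growth factors bind, was found before EXPA2 and EXPB2 (4.0% of members) and before 6.50% of all genes, and the related CACATG before 12 members (24.0%) and 12.7% of all genes. None of the 4 motifs contains another, and a match is a match of letters only.

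XTH27 (AT2G01850), known from vessel formation in leaves, held 51.9, 48.8 and 48.5 CPM at 22 °C and 60.7, 62.6 and 54.7 CPM at 29 °C in WT, without overlap but not past the test (log2 fold change 0.26 with an SE of 0.087, adjusted p = 0.0645). It held 49.3, 51 and 49 CPM at 22 °C and 72.6, 61.9 and 57.2 CPM at 29 °C in the rve5-2-labelled libraries (log2 fold change 0.36 with an SE of 0.087, adjusted p = 0.0103). Its relative XTH28, with 77.7% of aligned coding bases identical, ranged from 54.5 to 77.4 CPM over the 12 libraries and was not called.

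**Figure D3:**
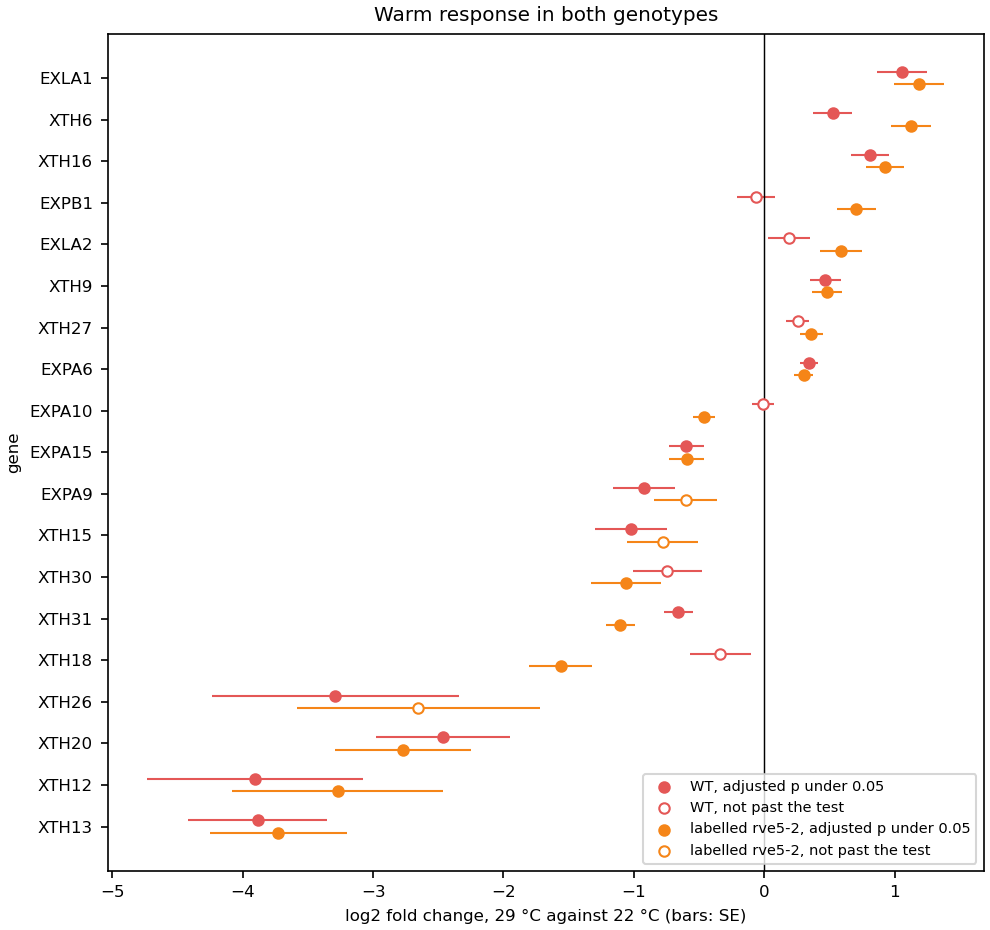
Log2 fold change from 22 to 29 °C (x axis; bars, SE) of the called members with counts in every group, in WT and in the rve5-2-labelled libraries; filled points have an adjusted p under 0.05. XTH16 and EXLA1 lie at nearly the same place in both genotypes, while XTH18, EXPB1 and EXPA10 were called in the rve5-2-labelled libraries only, with no interaction past the test (smallest adjusted p over all members 0.716).

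XTH31 (AT3G44990, chromosome 3, 16446975 to 16448764, minus strand), an XTH with xyloglucan hydrolase activity known from root growth, was the most abundant member at 22 °C and fell. WT held 360.1, 292 and 345 CPM at 22 °C and 194, 211 and 227 CPM at 29 °C. The rve5-2-labelled libraries held 312, 255 and 345 CPM at 22 °C and 135, 147 and 142 CPM at 29 °C. No warm library reached the lowest cool one (log2 fold change -0.66 with an SE of 0.11, adjusted p = 0.00311 in WT; log2 fold change -1.10 with an SE of 0.11, adjusted p = 7.65e-05 in the rve5-2-labelled libraries). Its relative XTH32, of the same small hydrolase group, ranged from 16.7 to 30.5 CPM and was not called.

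The called XTHs that fell most on the log2 scale are known from the root and were scarce. XTH13 (AT5G57540, chromosome 5, 23302996 to 23304049, minus strand) held 2.57, 2.18 and 4.75 CPM in WT at 22 °C and 0.143, 0.337 and 0.161 CPM at 29 °C. It held 4.06, 2.89 and 4.1 CPM at 22 °C and 0.207, 0.128 and 0.491 CPM at 29 °C in the rve5-2-labelled libraries (log2 fold change -3.89 with an SE of 0.53, adjusted p = 0.000969 in WT; log2 fold change -3.73 with an SE of 0.53, adjusted p = 0.000557 in the rve5-2-labelled libraries). XTH12, next to it on the chromosome (23300321 to 23301605), shares 89.7% of aligned coding bases with XTH13 but no run longer than 47 bases. XTH12 held 2.97, 3.32 and 7.45 CPM at 22 °C and 0, 0.537 and 0.38 CPM at 29 °C in WT, and 3.49, 4.14 and 3.74 CPM at 22 °C and 0.414, 0.192 and 0.559 CPM at 29 °C in the rve5-2-labelled libraries (log2 fold change -3.90 with an SE of 0.83, adjusted p = 0.00909, and log2 fold change -3.27 with an SE of 0.81, adjusted p = 0.0117). Without the warm replicate 2 labelled rve5-2 the adjusted p of XTH12 there was 0.0506. For both genes every cool library lay above every warm one. The next genes of this cluster did not follow: XTH22, the touch-induced TCH4, stayed between 4.84 and 10.9 CPM and was not called, and XTH25 had at most 0.75 CPM.

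XTH20 (AT5G48070, chromosome 5, 19482106 to 19483452, plus strand) held 8.51, 8.55 and 10.9 CPM in WT at 22 °C and 0.321, 1.64 and 3.1 CPM at 29 °C. The rve5-2-labelled libraries held 8.42, 7.82 and 9.49 CPM at 22 °C and 1.2, 1.3 and 1.27 CPM at 29 °C (log2 fold change -2.47 with an SE of 0.51, adjusted p = 0.00821 in WT; log2 fold change -2.77 with an SE of 0.52, adjusted p = 0.00285 in the rve5-2-labelled libraries). XTH26 (AT4G28850), known from root hairs, held 1.9, 1.39 and 6.98 CPM at 22 °C and 0, 0.424 and 0.622 CPM at 29 °C in WT, where replicate 3 at 22 °C stood well above the others (log2 fold change -3.29 with an SE of 0.95, adjusted p = 0.0357). In the rve5-2-labelled libraries it held 2.53, 2.1 and 3.14 CPM at 22 °C and 0.207, 0.385 and 0.641 CPM at 29 °C, not past the test (log2 fold change -2.65 with an SE of 0.93, adjusted p = 0.0537). The WT call of XTH26 was lost without cool replicate 1 or 3 or warm replicate 2, at an adjusted p of up to 0.174.

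XTH18 (AT4G30280, chromosome 4, 14825808 to 14827047, minus strand) held 10.9, 10.9 and 14.9 CPM in WT at 22 °C and 6.48, 12.7 and 9.97 CPM at 29 °C, which overlapped. In the rve5-2-labelled libraries it held 15.3, 11.7 and 18.2 CPM at 22 °C and 4.31, 5.06 and 5.94 CPM at 29 °C, the lowest 3 of the 12 (log2 fold change -1.56 with an SE of 0.24, adjusted p = 0.000968). Its neighbour XTH19 (14828712 to 14830016) has 89.0% of aligned coding bases in common with it, with a run of 68, and 1.7% of the exonic 50-base stretches of XTH18 recur there, so reads may be split between them. XTH19 was not called (log2 fold change -0.72 and -1.22, adjusted p = 0.279 and 0.0613). XTH17, which shares 92.2% of aligned coding bases with XTH18, was not called (log2 fold change -0.20 and 0.01). XTH30 (AT1G32170) held 11.2, 11.2 and 11.3 CPM at 22 °C and 3.54, 8.11 and 8.49 CPM at 29 °C in WT, without overlap but not past the test (log2 fold change -0.74 with an SE of 0.27, adjusted p = 0.0781). It held 15.2, 10.4 and 12.6 CPM at 22 °C and 4.98, 6.39 and 6.95 CPM at 29 °C in the rve5-2-labelled libraries (log2 fold change -1.06 with an SE of 0.27, adjusted p = 0.0134), and without the cool or the warm replicate 1 there its adjusted p was up to 0.0584.

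Of the 9 members known from the root, a list drawn up with these results known, 5 fell in WT and 6 in the rve5-2-labelled libraries, and none rose, with medians of -2.47 and -2.65 on the log2 scale. Among the other 40 tested members 5 rose and 3 fell in WT and 8 rose and 3 fell in the rve5-2-labelled libraries, with medians of -0.02 and -0.16. Over all genes tested 8.08% rose and 7.41% fell in WT, and 13.0% rose and 13.0% fell in the rve5-2-labelled libraries. As the root list was not drawn up independently of these values, the contrast between both lists is a description. The root score fell over the same libraries, by the values given above. With that score added to the model as a covariate, none of the 13 WT calls passed the test, and in the rve5-2-labelled libraries EXLA1 remained higher (log2 fold change 1.59, SE 0.33, adjusted p = 0.0395) and XTH31 lower (-0.85, SE 0.18, adjusted p = 0.0483). Over all genes the calls went from 3387 to 81 and from 5696 to 245. The SEs grew as well, by a median of 1.58 times for the members called higher in WT and 1.23 times for those called lower.

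The fold changes themselves moved unequally. The root score did not overlap between the temperatures in either genotype, so the model tells it from warmth only by the spread within groups. That spread was widest in WT at 29 °C, at -1.33, 1.20 and 1.20, where replicate 1 stood apart. The changes given here therefore describe this fit and do not divide a response between warmth and root score. For the members called higher, the median ratio of the log2 fold change with the score to that without it was 0.67 in WT and 0.83 in the rve5-2-labelled libraries. For those called lower it was 0.28 and 0.36. XTH16 (0.85 and 0.96) and EXLA1 (1.39 in WT) did not shrink. In the rve5-2-labelled libraries EXPA10, called lower, did not shrink either, at -0.56 with the score against -0.46 without it. Nor did EXLA2 there, at 0.61 against 0.59, and neither passed the test with the score. XTH26 in WT and XTH12 and XTH30 in the rve5-2-labelled libraries changed sign, at 1.07, 1.04 and 0.13, none past the test.

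**Figure D4:**
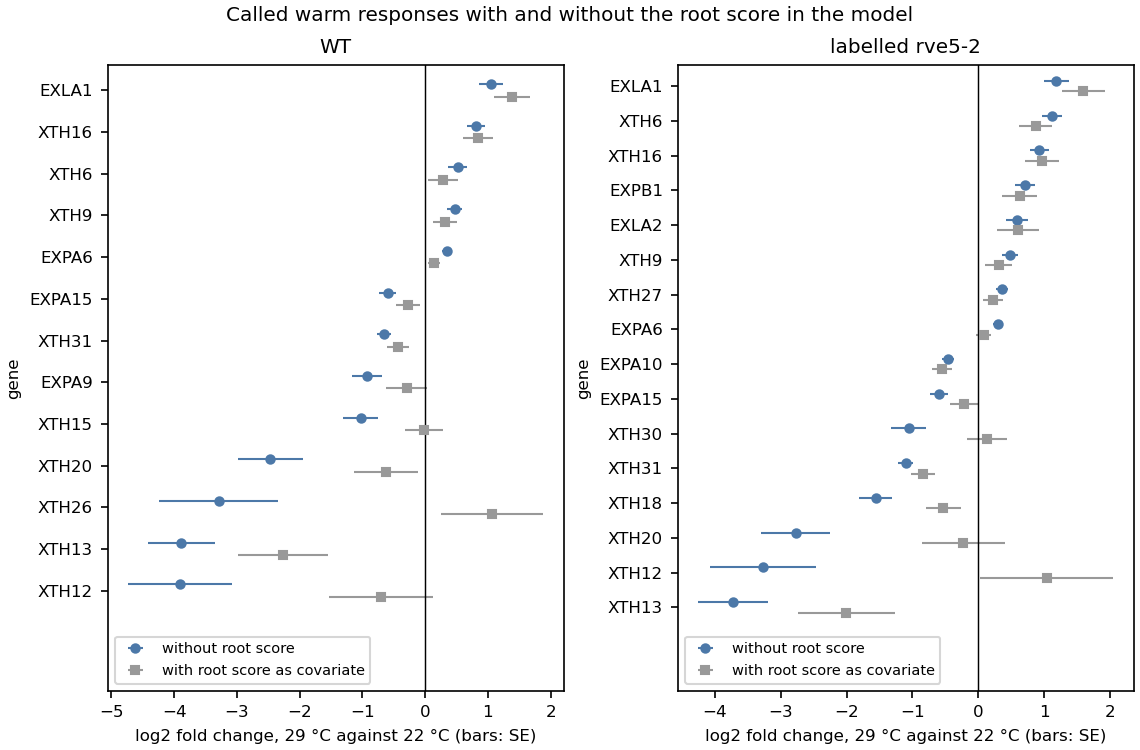
Log2 fold change from 22 to 29 °C (x axis; bars, SE) of the called members with counts in every group, without (circles) and with (squares) the root score as a covariate, in WT (left) and in the rve5-2-labelled libraries (right). The squares of the members that fell most lie nearer 0 or beyond it, while those of XTH16 and EXLA1 do not. Bars of XTH12, XTH13 and XTH20 are wider with the score in the rve5-2-labelled libraries. In WT the SE of XTH13 grew from 0.53 to 0.71. Those of XTH12 (0.83 in both fits) and XTH20 (0.51 and 0.50) hardly changed there, and that of XTH26 went from 0.95 to 0.81.

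At 22 °C no member was called between the genotypes in edgeR with all 12 libraries in the fit, beside 0.192% of all genes (0.137% higher and 0.0549% lower in the rve5-2-labelled libraries). At an unadjusted p under 0.05 in edgeR there were 8 of the 49 members, beside 1397 of all 21870 genes tested. DESeq2 called 1 member, XTH6 (adjusted p = 0.0026). In edgeR, XTH6 was called higher without WT replicate 1 (log2 fold change 0.89, SE 0.14, adjusted p = 0.0427), and EXPA8 with only the 2 groups compared in the fit (0.88, SE 0.15, adjusted p = 0.0375). Libraries did not overlap for 11 of the 49 members, beside 14.4% of all genes. XTH6 had the smallest adjusted p (log2 fold change 0.71 with an SE of 0.15, adjusted p = 0.167), and all 3 rve5-2-labelled libraries lay above those of WT. The shoot score was higher in the rve5-2-labelled libraries at 22 °C too, at 10.8 ± 0.068 against 10.5 ± 0.063 (± SD of 3 libraries). Of its 8 genes 1 was called higher, and their median log2 fold change was 0.14. The largest was that of LHCB2.1 (1.92, mean 156 against 41.1 CPM), while CA1 averaged 5435 against 5573 CPM.

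At 29 °C 3 members were called, beside 0.466% of all genes: 1 higher, beside 0.32%, and 2 lower, beside 0.146%. Libraries of 12 members did not overlap, beside 11.6% of all genes. XTH6 was higher in the rve5-2-labelled libraries (log2 fold change 1.31 with an SE of 0.15, adjusted p = 0.00146) and remained so without each of the 6 libraries in turn (adjusted p up to 0.0126) and in the model with the root score (1.32, adjusted p = 0.000408). EXPA10 was lower (log2 fold change -0.47 with an SE of 0.085, adjusted p = 0.03), as was XTH31 (log2 fold change -0.57 with an SE of 0.11, adjusted p = 0.0495). Their calls were less firm. XTH31 lost its call without any 1 of the libraries but WT replicate 1, at an adjusted p of up to 0.216. EXPA10 lost it without WT replicate 2 or any of the 3 rve5-2-labelled libraries, at up to 0.165.

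WT replicate 1, the library with the lowest root score, bore on this comparison. Without it 558 genes were called in place of 102, and EXPA8 (log2 fold change 1.36, SE 0.21, adjusted p = 0.00482) and EXPA5 (0.45, SE 0.10, adjusted p = 0.0348) joined XTH6 among the members called higher. XTH18 (-1.15, SE 0.21, adjusted p = 0.0117) and XTH19 (-1.25, SE 0.28, adjusted p = 0.0364) joined those called lower. With all libraries EXPA8 held 66.8, 27.7 and 37.1 CPM in WT and 76.5, 67.6 and 105 CPM in the rve5-2-labelled libraries (log2 fold change 0.92 with an SE of 0.28, adjusted p = 0.278). The shoot score was also higher there, at 11.3 ± 0.062 against 10.9 ± 0.15 (± SD of 3 libraries), and its part in these differences was not tested. Of its 8 genes 3 were called higher, beside 0.32% of all genes. Their median log2 fold change was 0.16, and the largest, that of LHCB2.1, was 1.96.

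**Figure D5:**
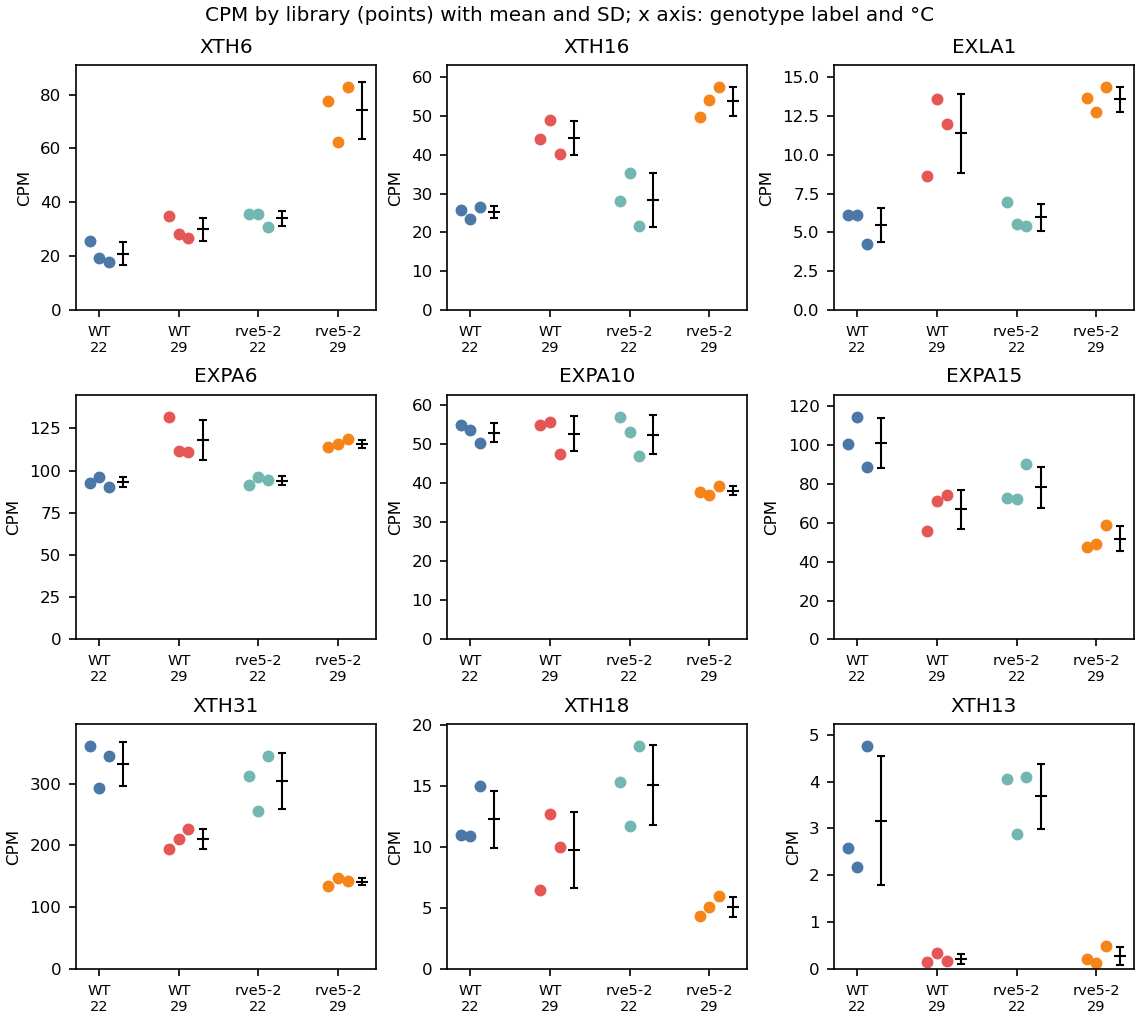
CPM (y axis, from 0) of 9 members in each library (points), with mean and SD beside them (n = 3), by genotype label and temperature (x axis). XTH6 is highest in the 3 warm rve5-2-labelled libraries, at 62.3 to 82.6 CPM, and EXPA10, XTH31 and XTH18 are lowest there.

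No member's warm response differed between the genotypes past the test of that difference. The interaction called 0 members in edgeR and in DESeq2, beside 0.0% of all genes in edgeR. At an unadjusted p under 0.05 in edgeR there were 7 of the 49 members, beside 1070 of all 21870 genes tested. The smallest adjusted p of a member was 0.716. EXPB1 (log2 difference of the responses 0.77, SE 0.21, adjusted p = 0.716), EXPA10 (-0.45, SE 0.12, adjusted p = 0.716) and XTH18 (-1.23, SE 0.34, adjusted p = 0.716) had the smallest. XTH6 (0.60, SE 0.21) and XTH31 (-0.45, SE 0.16) followed, each with an adjusted p of 0.981.

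In all, 30 members were called in neither warm comparison, EXPB2 among them. They include abundant genes such as XTH7, XTH4, EXPA1, EXPB3, EXPA4 and EXPA3. XTH4, which takes part in stem growth, had a log2 fold change of -0.06 in WT and -0.22 in the rve5-2-labelled libraries, and XTH7 of 0.23 and 0.38. XTH24 (MERI5), the meristem XTH beside XTH18, held 20.2, 13.1 and 16.4 CPM at 22 °C and 17.4, 37.5 and 26.8 CPM at 29 °C in WT and 26.7, 26.6 and 25.8 CPM at 22 °C and 29.3, 24.9 and 16.8 CPM at 29 °C in the rve5-2-labelled libraries, overlapping in both and not called.

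Genes that make the walls these proteins act on moved in both directions with warmth. Of 17 genes of xyloglucan synthesis and trimming, 2 rose and 3 fell in WT, beside 8.08% and 7.41% of all genes, and 1 rose and 6 fell in the rve5-2-labelled libraries, beside 13.0% each way. The median log2 fold change of the list was -0.13 and -0.18, and that of all genes 0.0018 and -0.0047. The xylosyltransferase XXT5 held 56.1, 59.9 and 57.7 CPM at 22 °C and 39.3, 41.1 and 43.1 CPM at 29 °C in WT (log2 fold change -0.49 with an SE of 0.076, adjusted p = 0.00195; -0.40 in the rve5-2-labelled libraries, adjusted p = 0.00295). The fucosidase AXY8, which trims side chains, rose (0.39 and 0.46, adjusted p = 0.00606 and 0.0013). The galactosidase BGAL10 fell in the rve5-2-labelled libraries (-0.47, adjusted p = 0.000953) and stood at -0.06 in WT, not past the test.

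Of 10 genes of primary-wall cellulose synthesis, none rose and 5 fell in WT, where 7.41% of all genes fell, and 1 rose and 6 fell in the rve5-2-labelled libraries, where 13.0% fell. Their median log2 fold change was -0.21 and -0.27. The cellulose synthase subunit CESA3 held 298, 259.9 and 312 CPM at 22 °C and 189, 212 and 215 CPM at 29 °C in WT (log2 fold change -0.50 with an SE of 0.084, adjusted p = 0.00286; -0.57 in the rve5-2-labelled libraries, adjusted p = 0.000693). CESA1 (-0.42 and -0.53) and CSI1, which links the complex to microtubules (-0.37 and -0.44), fell in both genotypes. Of the proton pumps, AHA2, the main pump of the root, held 711, 611 and 757 CPM at 22 °C and 264, 396 and 519 CPM at 29 °C in WT (log2 fold change -0.82 with an SE of 0.23, adjusted p = 0.0337; -1.08 in the rve5-2-labelled libraries, adjusted p = 0.00615). AHA1 stood at -0.07 in WT, not past the test, and fell in the rve5-2-labelled libraries (-0.32, adjusted p = 0.0216). The root score fell beside these genes too, and its part in them was not tested.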

How the data were processed

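RNA was sequenced from whole seedlings, 3 libraries in each of 4 groups set by the genotype and temperature in each sample's own labels; the treatment protocol, identical for every sample, gives 29 °C and was not used. Per the labels' protocols, Trizol RNA went into Illumina TruSeq RNA libraries, a kind without strand information. The submitters' processing notes name cutadapt 1.9, HISAT2 2.0.4, StringTie 1.3.4d, edgeR and, as genome build, TAIR10; the step each served is not given in the sources used here. The table deposited by the authors holds whole-number counts and FPKM values per gene and library. Low values in it cluster near every 4th integer (spacing 3.82), so 1 fragment may have added about 4 counts and the totals may stand for 17.2 to 23.3 M fragments (M, 1e6). Floors of 3 fragments over a group use that spacing and cover counting error only. Between 8.24 and 11.2% of a library went to its top 10 genes.

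R 4.3.3 and edgeR 4.0.16 were used on the counts: filterByExpr (minimum count 10) kept 21870 of 32399 genes, TMM scaled the libraries, and all 12 entered 1 quasi-likelihood model of group means. The 5 contrasts were warmth in each genotype, genotype label at each temperature, and their interaction. Benjamini-Hochberg adjustment covered every gene tested. An SE is the log2 fold change divided by the root of the F value, an approximation. CPM is per M counts after TMM scaling. The steps were tested on simulated data. Sums of FPKM were compared by exact permutation, in scipy 1.17.1, over 4 kinds of sum and 4 contrasts, with unadjusted p. With members that had no counts in 1 group set to their bounds, the medians of the members were unchanged.

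The alternatives were median-of-ratios scaling, quantile normalization with limma 3.58.1, no filter on low counts, limma on log2(FPKM + 1), counts divided by the spacing, only the groups compared, the replicate number as a block, the root score as a covariate, DESeq2 1.42.0, and leaving out each library in turn. Shared sequence was counted as exonic stretches of 50 bases found elsewhere in the RefSeq genome TAIR10.1; gene positions are those of the table. Upstream motifs were searched on both strands. The members, the root and wall lists and the rule for named genes (values by library for every member called) were chosen with earlier results of these data known.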

Additional observations from a re-analysis of the deposited data

How the results depend on the processing

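Of the 33 calls of members, 33 kept their direction and their side of the threshold under quantile normalization, without a filter on low counts, in limma on log2(FPKM + 1), with counts divided by the spacing, and in DESeq2, and 32 did with median-of-ratios scaling, where XTH31 between the genotypes at 29 °C was lost, leaving 1 member lower there. The replicate number was not used to pair the libraries in the main model. Same-numbered libraries correlated at -0.025 to 0.21 in their deviations from the group means. The highest values were between the groups at 29 °C, at 0.19 for replicate 1 and 0.21 for replicate 3. They were not set against libraries of different number, so a weak pairing cannot be told from none. With the replicate block, 33 of the 33 calls were kept; 6 members were called higher and 9 lower in WT, and 8 and 13 in the rve5-2-labelled libraries, with 3829 and 5954 genes in all.

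DESeq2 called more: 13 members lower in warmth in WT and 15 in the rve5-2-labelled libraries, 1 higher between genotypes at 22 °C and 2 at 29 °C, with 145, 351 and 43 genes in all for the genotypes at 22 °C, at 29 °C and the interaction. limma on log2(FPKM + 1) called 14 lower in the rve5-2-labelled libraries. With only the groups compared in the fit, 24 of 33 calls were kept. In WT 2 members were higher and 4 lower (1687 genes in all). EXPA6, XTH12 and XTH20 lost their WT calls there (edgeR adjusted p = 0.0555, 0.0544 and 0.0584), as did XTH6, XTH9, XTH15 and XTH26. Between the genotypes 1 member was higher at 22 °C (75 genes) and 0 were lower at 29 °C (38 genes). With the root score as a covariate, 5 of 33 calls were kept, 25 lost the threshold and 3 reversed: XTH26 in WT to 1.07, and XTH30 and XTH12 in the rve5-2-labelled libraries to 0.13 and 1.04 on the log2 scale. Then 0 members were called higher and 0 lower in WT (81 genes), 1 and 1 in the rve5-2-labelled libraries (245 genes), and 75 and 217 genes between the genotypes at 22 and 29 °C. The cause of these changes was not tested.

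Leaving out each library in turn, 22 of 33 calls were kept throughout. Members called higher and lower in WT ranged from 3 to 6 and from 5 to 10 (1747 to 3621 genes), those in the rve5-2-labelled libraries from 7 to 9 and from 8 to 13 (3590 to 5239 genes). Between the genotypes 0 to 1 were higher at 22 °C (25 to 48 genes), and 1 to 3 higher and 0 to 4 lower at 29 °C (52 to 558 genes). The interaction gave 0 to 1 genes. With 3 libraries a group and counts near the floor, small changes of the rarest members (EXPB2, XTH25, EXPA12, EXPA2, EXPA17) were not detectable at this depth.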
